A study of Mus musculus with 19 samples.

Results

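The myelin genes of the mouse left prelimbic cortex were followed by RNA sequencing across 4 groups. They are the 9 genes Mbp, Mog, Mag, Mobp, Cnp, Cldn11, Mal, Opalin and Ugt8a, out of 20938 in the count table. They were taken by name, with no measured value in the rule, and all 9 were found and passed the filter on low counts. The 9 genes and the gene lists used below were, however, chosen with earlier results of these data known. Their counts beside a background are therefore not those of sets chosen blind to the data. SCZ mice were a schizophrenia model given MK-801, which blocks NMDA receptors, at 0.2 mg/kg by daily intraperitoneal injection for 2 weeks, and Control mice had received saline on the same schedule. In SCZ+c-MSST and Control+c-MSST mice, ferumoxytol (superparamagnetic iron oxide nanoparticles) was also injected once into the left prelimbic cortex by stereotactic surgery, and the awake mice were then placed in a pulsed magnetic field. There were 4 SCZ+c-MSST, 4 SCZ, 5 Control+c-MSST and 6 Control libraries, from tissue taken on day 3 after surgery, and the design text gives the same numbers of mice. The labels name no strain, sex, age or batch, and do not tell whether mice without c-MSST were operated on; where they were not, c-MSST cannot be told apart from surgery and injection.

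Myelin is the stack of membrane that oligodendrocytes, the myelin-forming glia of the central nervous system, wrap around axons to speed conduction. Its genes are switched on together when a precursor cell matures, under transcription factors that include Myrf, Sox10 and Olig2, and their transcripts are among the most abundant in that cell. Deep layers of the prefrontal cortex and the white matter beneath it hold far more of these cells than the upper layers. In bulk tissue, fewer cells of a type and less RNA per cell cannot be told apart, and this holds for every value given here.

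Promoters of 3 of the genes are shown because they carry letters known as binding motifs of the lineage transcription factors, and their genes are among those followed below. A search on both strands of the 250 bases before each RefSeq start (build GRCm38.p6), in 10 promoters of 8 of the genes, looked for a Myrf motif (CTGGCAC) and a SoxE motif (ACAAAG), the family of Sox8 and Sox10. The Myrf motif was in 3 promoters of 2 genes, Mag and Cnp, and in 4.19% of the 32851 promoters of the RefSeq table. The SoxE motif was in 5 promoters of 4 genes, Mag, Mobp, Cnp and Opalin, and in 16.5% of all promoters. For both motifs, 2 of the promoters counted are overlapping windows of Mag that hold the same letters. The Mobp promoter held 6 of them, a number reached by 0.00304% of all promoters, a share that is the Mobp promoter alone. The matched letters are in capitals and the sequences run 5′ to 3′ on the strand of the gene; no 2 matches overlapped. They stop before the gene starts of the GENCODE annotation. Mag is shown at chr7:30914874-30915113 (minus strand), Cnp at chr11:100574689-100574903 (plus strand) and Mobp at chr9:120149492-120149706 (plus strand).
Mag: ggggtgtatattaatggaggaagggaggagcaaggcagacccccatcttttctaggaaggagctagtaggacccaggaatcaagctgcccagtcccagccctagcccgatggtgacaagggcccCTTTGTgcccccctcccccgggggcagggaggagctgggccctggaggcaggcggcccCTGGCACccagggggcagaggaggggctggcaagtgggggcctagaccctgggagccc
Cnp: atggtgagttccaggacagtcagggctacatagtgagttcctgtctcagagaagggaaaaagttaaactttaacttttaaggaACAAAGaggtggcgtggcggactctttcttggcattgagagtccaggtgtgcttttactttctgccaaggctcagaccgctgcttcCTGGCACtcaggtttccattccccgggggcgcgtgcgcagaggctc
Mobp: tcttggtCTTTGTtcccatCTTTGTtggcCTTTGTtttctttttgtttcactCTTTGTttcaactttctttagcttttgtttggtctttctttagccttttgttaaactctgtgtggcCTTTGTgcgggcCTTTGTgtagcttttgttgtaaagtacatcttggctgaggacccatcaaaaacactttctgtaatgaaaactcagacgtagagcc
In Mag the SoxE letters began 126 bases and the Myrf letters 68 bases before the RefSeq start, and in Cnp 167 and 81 bases before it. The searched promoters of Mog, Cldn11, Mal and Ugt8a held neither run of letters, which says only that these letters are not in these windows.

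The 9 genes lie on 8 chromosomes of mouse build GRCm38 (mm10; GENCODE M21). Mag spans chr7:30899176-30914873, Cnp chr11:100574904-100591729, Mobp chr9:120149707-120181484, Mog chr17:37010743-37023398 and Mbp chr18:82475146-82585637. Cldn11 (chr3:31149920-31164324) and Ugt8a (chr3:125865271-125938619) share a chromosome, Mal lies at chr2:127633226-127656695 and Opalin at chr19:41061710-41077113. Counts were read over whole genes, so exons, introns and untranslated regions were not separated. Cnp shares 154 exonic bases with Dnajc7 on the other strand, and Mobp shares 79 with the transcript Gm38642 on its own strand. No source used here tells if reads were counted by strand, so reads in those bases are uncertain.

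Totals ran from 66828543 to 75090222 counts in SCZ+c-MSST libraries, 65498768 to 82416746 in SCZ, 60577337 to 72866386 in Control+c-MSST and 50140626 to 66818266 in Control. At this depth the least covered of the genes, Opalin, had 278 to 1944 counts per library, and Mbp had 30136 to 159644. Levels are given in CPM, the usual scale that divides a gene's counts by the total of its library. Libraries differed in markers of neighbouring regions: 8 striatal neuron markers summed to 858 to 1885 CPM in SCZ+c-MSST, 1404 to 1834 in SCZ, 171 to 1218 in Control+c-MSST and 143 to 1510 in Control. Choroid plexus markers (5 genes) summed to 4.30 to 5.94 CPM in SCZ+c-MSST, 5.66 to 12.5 in SCZ, 3.67 to 5.35 in Control+c-MSST and 3.47 to 1739 in Control. Septal and medial forebrain markers (3 genes) summed to 14.6 to 20.5 CPM in SCZ+c-MSST, 18.6 to 67.7 in SCZ, 10.8 to 19.4 in Control+c-MSST and 11.6 to 46.8 in Control. A single library, Control+c-MSST replicate 6, had the lowest level of all 19 libraries for 9 of the 9 myelin genes, and results that rest on it are given with and without it.

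In the deposited FPKM values the genes were ordered by the median over 19 libraries. They ran from Mbp (193 FPKM) through Cldn11 (40.4), Mag (38.05), Mobp (36.7), Mal (32.1), Cnp (30.2), Mog (10.03) and Ugt8a (7.45) to Opalin (1.67). The ranges over libraries of the 5 genes from Cldn11 to Cnp overlapped, with 15.4 to 61.9 FPKM for Cldn11 and 12.9 to 43.4 FPKM for Cnp. Within every single library, however, Cldn11 lay above Cnp. The range of Mog (3.08 to 13.95 FPKM) overlapped those of Cnp and Ugt8a (2.92 to 9.58 FPKM), but within every single library Mog lay below Cnp and above Ugt8a. Mbp, at 63.1 to 260.7 FPKM, lay above every library of each other gene. Opalin, at 0.41 to 2.23 FPKM, lay below every library of each other gene. The lengths behind these FPKM values were not the annotated exon lengths. In SCZ+c-MSST replicate 2, Cnp had 203 CPM and 28.7 FPKM, and Cldn11 had 67.5 CPM and 34.2 FPKM. Their annotated exons cover 3639 and 1870 bases. The order below Mbp, also within single libraries, therefore depends on the lengths used. Of the counts that fell on the 9 genes, Mbp took 62.2% to 66.0% in every library.

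Mbp, Mobp and Mal encode proteins of compact myelin. Mbp encodes myelin basic protein, which holds the cytoplasmic faces of the membrane together. Mbp stood at 1441, 1685, 1266 and 1436 CPM in SCZ+c-MSST (replicates 2, 3, 4 and 5), against 1880, 1652, 1690 and 1937 CPM in SCZ (replicates 1, 2, 3 and 5). It stood at 1181, 1337, 994.8, 439.8 and 1298 CPM in Control+c-MSST (replicates 1, 2, 4, 6 and 7), against a lowest of 1154, a median of 1721 and a highest of 1962 CPM in the 6 Control libraries. The highest SCZ+c-MSST library lay above the lowest of SCZ, and 3 of the 5 Control+c-MSST libraries reached into the Control range. Averages were 1457 ± 172 CPM in SCZ+c-MSST (SD, n = 4), 1790 ± 139.8 in SCZ (n = 4), 1050 ± 366 in Control+c-MSST (n = 5) and 1631 ± 324.5 in Control (n = 6). In Control+c-MSST against Control the fitted log2 fold change of Mbp was -0.61 (SE 0.22; edgeR quasi-likelihood test, Benjamini-Hochberg adjusted p = 0.176), a level at 65.3% of Control that did not pass the threshold of 0.05.

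Mobp encodes a small basic protein of the same compact membrane. It stood at 172.6, 200.01, 156 and 166 CPM in SCZ+c-MSST, against 229.7, 173.5, 183.7 and 209.6 CPM in SCZ, in the order of replicates given for Mbp. In Control+c-MSST it stood at 153.5, 177, 125.6, 46.5 and 169.5 CPM, against a lowest of 144, a median of 209.9 and a highest of 255 CPM in Control. Both pairs of groups overlapped. Mobp had a log2 fold change of -0.58 in Control+c-MSST against Control (SE 0.25, edgeR adjusted p = 0.255).

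Mal encodes a proteolipid that carries membrane to the sheath. Mal stood at 98.7, 122, 97.0 and 92.9 CPM in SCZ+c-MSST, against 158, 112.8, 124 and 144 CPM in SCZ. Control+c-MSST libraries held 85.3, 119, 88.6, 35.1 and 105.7 CPM, against a lowest of 101.5, a median of 133.7 and a highest of 158 CPM in Control. Of the 4 SCZ+c-MSST libraries, 3 lay below every SCZ library. The log2 fold change of Mal in Control+c-MSST against Control was -0.57 (SE 0.23, edgeR adjusted p = 0.227).

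Mag, Mog and Opalin encode proteins of the sheath's surface membranes. Mag, myelin-associated glycoprotein, faces the axon, and it stood at 118, 133, 106.6 and 126 CPM in SCZ+c-MSST, against 155, 132.5, 138 and 153 CPM in SCZ. In Control+c-MSST Mag stood at 98.4, 117, 79.7, 36.8 and 110.3 CPM, against a lowest of 88.4, a median of 134 and a highest of 153 CPM in Control. Replicate 3 of SCZ+c-MSST lay just above the lowest SCZ library, and the other 3 lay below all of SCZ. Mag had a log2 fold change of -0.50 in Control+c-MSST against Control (SE 0.22, edgeR adjusted p = 0.264).

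Mog, myelin oligodendrocyte glycoprotein, sits on the outermost turn of the sheath. Mog stood at 29.2, 36.15, 24.7 and 29.7 CPM in SCZ+c-MSST, against 38.7, 34.2, 39.5 and 40.4 CPM in SCZ. Among Control+c-MSST libraries it was 25.4, 33.7, 24.6, 8.70 and 27.5 CPM, against a lowest of 26.65, a median of 35.8 and a highest of 42.6 CPM in Control. Of the SCZ+c-MSST libraries, replicate 3 alone lay within the SCZ range. The log2 fold change of Mog in Control+c-MSST against Control was -0.53 (SE 0.23, edgeR adjusted p = 0.268).

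Opalin encodes a glycosylated membrane protein found in oligodendrocytes of mammals and was the least abundant of the 9. It stood at 17.0, 23.0, 14.0 and 19.6 CPM in SCZ+c-MSST, against 20.7, 20.3, 19.5 and 23.6 CPM in SCZ. Control+c-MSST libraries held 13.5, 16.3, 10.2, 4.06 and 14.5 CPM, against a lowest of 11.8, a median of 18.97 and a highest of 21.2 CPM in Control. Opalin overlapped in both pairs of groups and had the widest spread of the 9, with an SD of 0.57 in log2 CPM over 19 libraries. Its log2 fold change in Control+c-MSST against Control was -0.58 (SE 0.26, edgeR adjusted p = 0.269).

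Cnp and Cldn11 encode proteins that shape the sheath's compartments. Cnp encodes CNPase, an enzyme of non-compact myelin that keeps cytoplasmic channels open. Cnp stood at 203, 238, 192 and 210.6 CPM in SCZ+c-MSST, against 271, 239.5, 256 and 286 CPM in SCZ, so that every SCZ+c-MSST library lay below every SCZ library. In Control+c-MSST it stood at 169.9, 214, 150.5, 79.0 and 190.1 CPM, against a lowest of 172, a median of 227 and a highest of 274 CPM in Control, with overlap. Cnp had a log2 fold change of -0.46 in Control+c-MSST against Control (SE 0.19, edgeR adjusted p = 0.232).

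Cldn11 encodes claudin 11, the tight junction protein that seals the turns of the sheath. Cldn11 stood at 67.5, 87.5, 67.5 and 71.4 CPM in SCZ+c-MSST, against 104.4, 89.7, 99.2 and 95.3 CPM in SCZ, again with no overlap. Its levels in Control+c-MSST were 67.3, 88.5, 60.5, 26.2 and 75.8 CPM, against a lowest of 68.0, a median of 83.6 and a highest of 114 CPM in Control. In the saline mice the groups overlapped, with 2 of the 5 Control+c-MSST libraries inside the Control range. The log2 fold change of Cldn11 in Control+c-MSST against Control was -0.43 (SE 0.22, edgeR adjusted p = 0.336).

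Ugt8a encodes the galactosyltransferase that makes galactosylceramide, the characteristic lipid of myelin. Ugt8a stood at 39.2, 48.7, 38.2 and 43.6 CPM in SCZ+c-MSST, against 54.1, 50.3, 49.35 and 58.0 CPM in SCZ, with no overlap. In Control+c-MSST it stood at 34.6, 45.0, 33.4, 17.0 and 39.3 CPM, against a lowest of 34.25, a median of 53.8 and a highest of 60.2 CPM in Control. The highest 3 Control+c-MSST libraries lay within the Control range. Ugt8a had a log2 fold change of -0.54 in Control+c-MSST against Control (SE 0.19, edgeR adjusted p = 0.179).

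**Figure D1:**
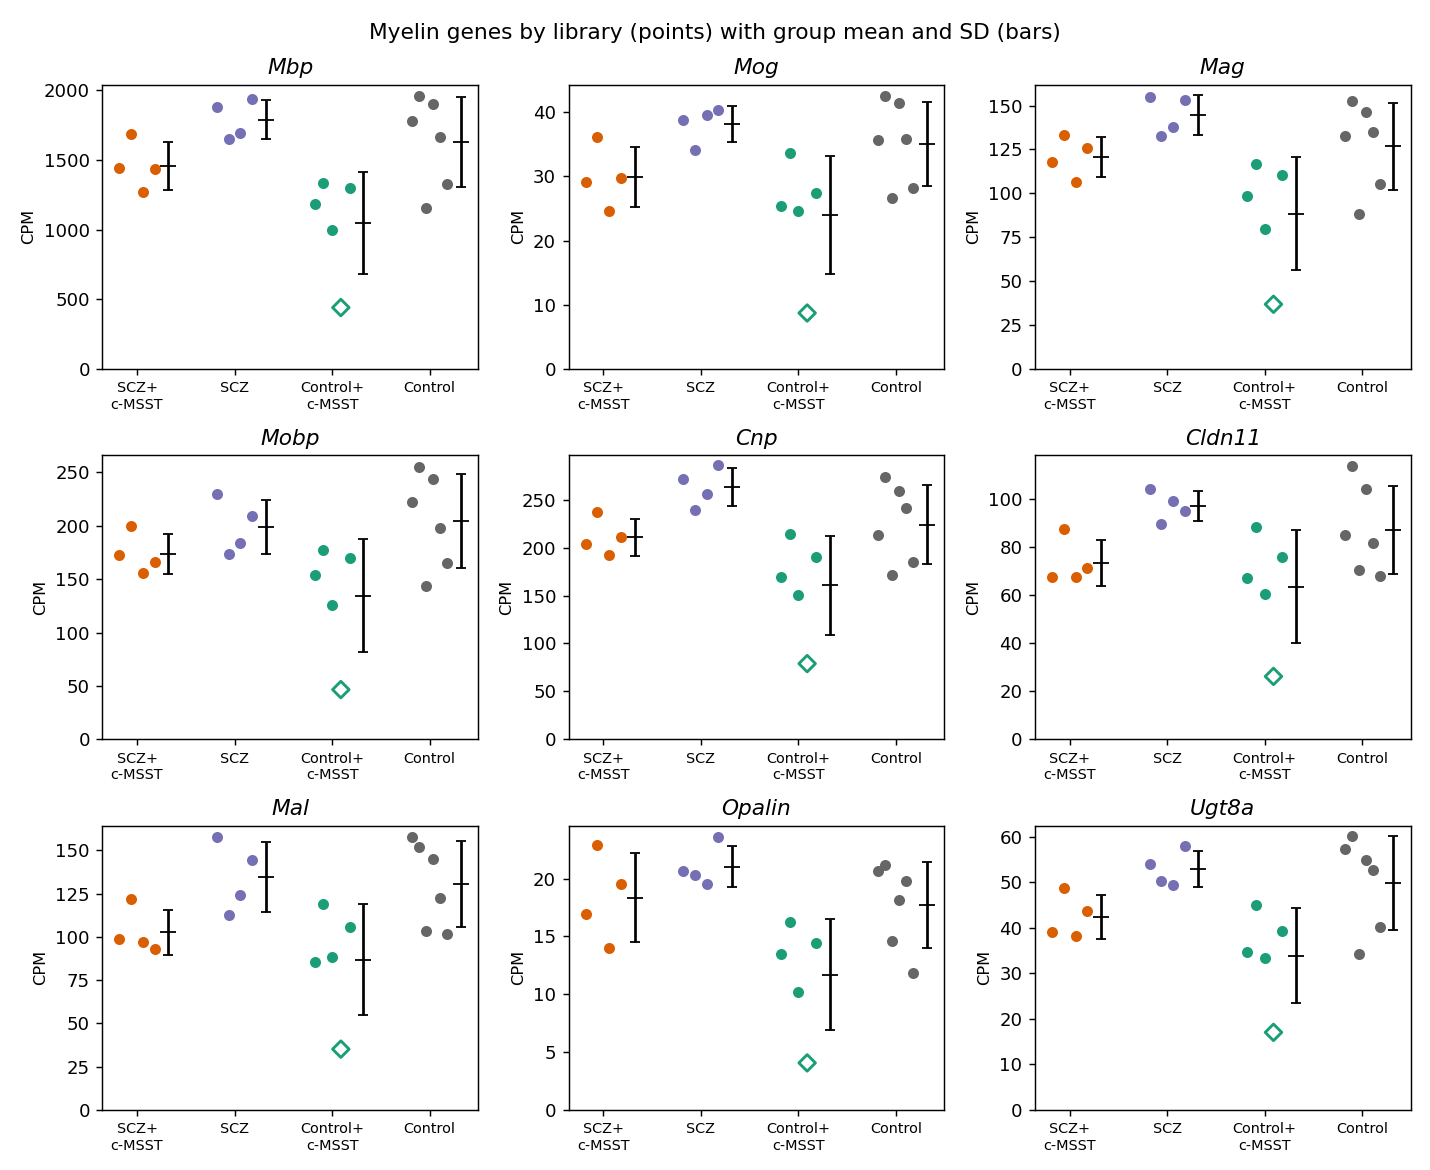
Level of each of the 9 myelin genes in CPM (vertical axis, from 0) in every library, by group (SCZ+c-MSST, SCZ, Control+c-MSST, Control); the bar beside each group is its mean and SD over 4, 4, 5 and 6 libraries, and the open diamond is Control+c-MSST replicate 6. The diamond is the lowest point of each panel, at 439.8 CPM for Mbp, and the other libraries of its group lie in or near the lower part of the Control range.

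The comparison of c-MSST with none in saline mice had the largest median difference of the 6 comparisons. All 9 genes had a negative log2 fold change there, from -0.61 for Mbp to -0.43 for Cldn11, with a median of -0.54 beside -0.01 over all 16417 genes tested. By edgeR 0 of 9 passed an adjusted p under 0.05, where 54 genes, 0.329% of those tested, did. Under the same edgeR test 8 of the 9 genes, all but Cldn11, had an unadjusted p under 0.05, beside 16.6% of genes tested. None of the 9 was lower with no overlap between the libraries of the groups, beside 1.3% of genes tested.

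Other tests gave the same direction with a call for 1 gene. DESeq2 called 1 of the 9, Mbp, with a log2 fold change of -0.61 and an adjusted p of 0.0476, beside 3.48% of genes tested, and had 9 at an unadjusted p under 0.05, beside 17.3%. By limma voom with quality weights 0 of 9 passed (background 0.152%) and 8 had an unadjusted p under 0.05 (background 14.9%). By limma on log2(FPKM + 1) 0 of 9 passed (background 1.58%) and 8 had an unadjusted p under 0.05 (background 17.3%). The genes move together from library to library, so their 9 directions are not separate pieces of evidence.

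Control+c-MSST replicate 6 held much less of each myelin transcript than the rest of its group. Its level was 29.7% (Mobp) to 44.7% (Ugt8a) of the mean of the other 4 Control+c-MSST libraries, and the 9 genes summed to 693 CPM in it, against 1568 to 3034 CPM in the other 18 libraries. Of all genes tested, 10.5% were lowest in that library. Leaving it out put the median log2 fold change at -0.36 in Control+c-MSST against Control, from -0.42 for Mbp to -0.24 for Cldn11, and 9 of 9 genes were negative. By edgeR 0 of 9 then passed the adjusted threshold, as did 0 of 16388 genes tested (background 0%), while 8 of 9 had an unadjusted p under 0.05 (background 12.5%). The SE of Mbp was 0.14 without that library and 0.22 with it.

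That library differed from the other 18 in other lists as well. Its 9 myelin genes had a median difference in log2 CPM of -1.79, and 25 other genes of mature oligodendrocytes had a median of -1.29, with 25 of 25 lower and 24 lowest of all 19 libraries. For lineage transcription factors the median was -0.70 (10 of 10 lower), for markers of oligodendrocyte precursors and committed cells -0.28 (8 of 11 lower) and for neuron markers -0.13 (6 of 9 lower). Microglia markers were higher in it for 7 of 7, with a median of 0.22, and P2ry12, a receptor of resting microglia named after its values were seen, was higher by 1.78. Striatal markers were lower in it for 8 of 8 (median -2.57), at a summed 171 CPM. Choroid plexus markers were lower in it for 4 of 5 (median -2.99), with Ttr at 0.03 CPM and Folr1 and Otx2 at 0 CPM. None of the 5 was the single lowest of the 19 libraries. Their sum was 4.71 CPM, inside the range of its group, 3.67 to 5.35 CPM. Septal markers were lower in it for 3 of 3 (-0.65) and deep layer neuron markers for 3 of 5 (-0.25), while upper layer neuron markers were higher for 3 of 4 (0.20). The part of these lists in its low myelin values was not tested.

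**Figure D2:**
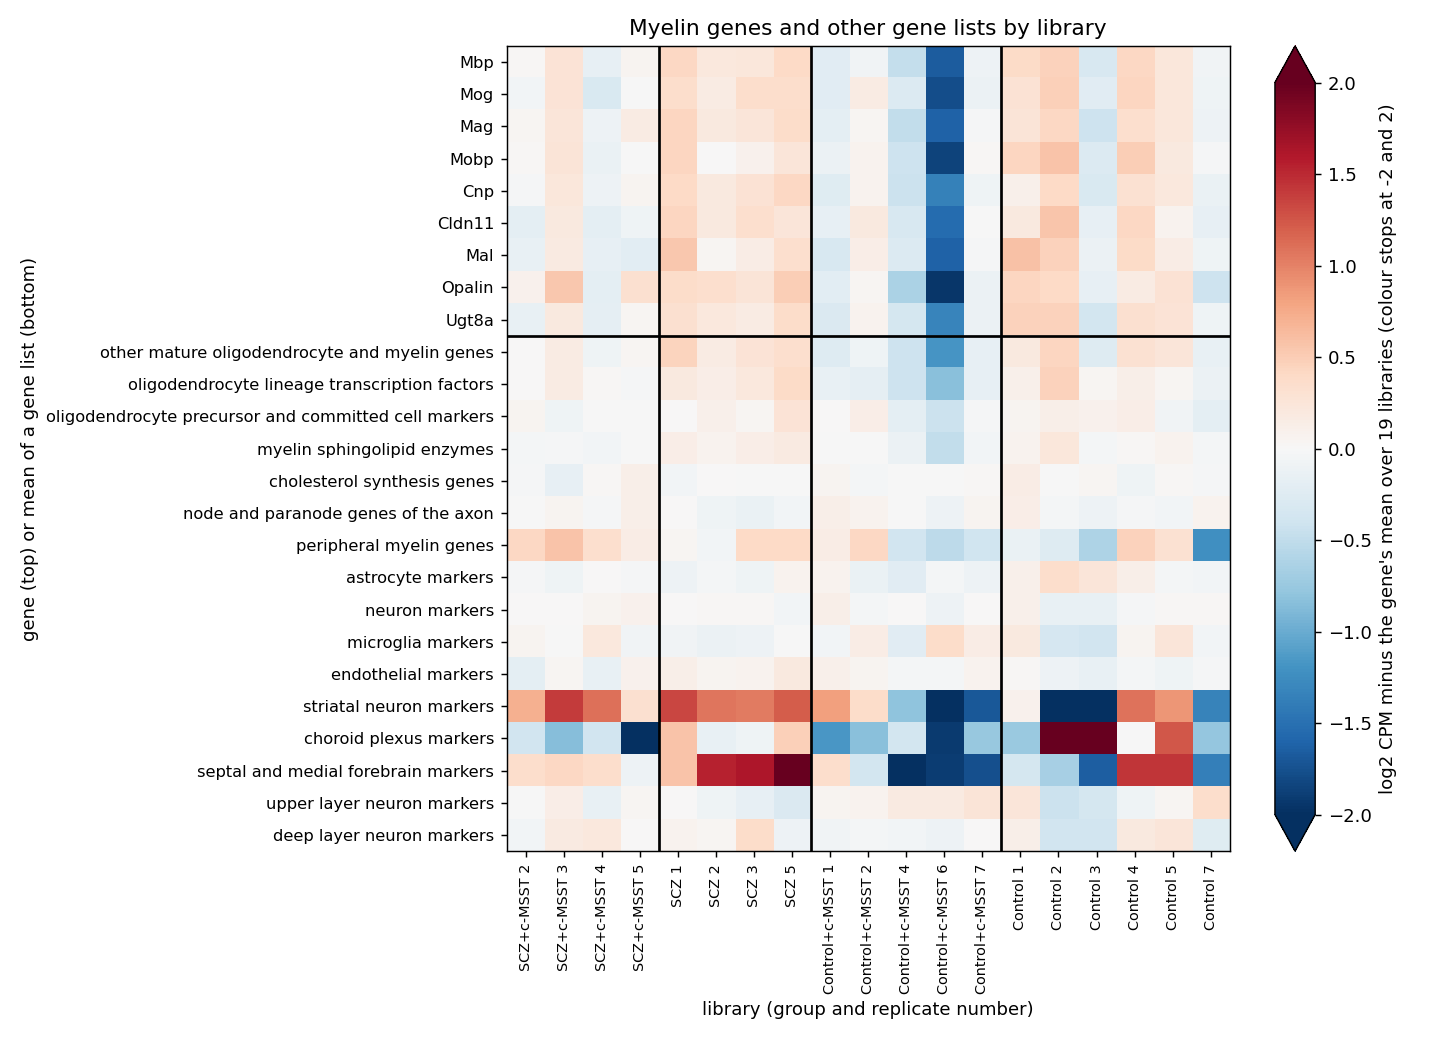
Log2 CPM minus each gene's mean over the 19 libraries, for the 9 myelin genes (top rows) and as the mean over each of 16 gene lists (lower rows), with 1 column per library, in the groups SCZ+c-MSST, SCZ, Control+c-MSST and Control from left to right; blue is below and red above the mean, and colours stop at -2 and 2. The 9 rows share 1 pattern across columns and are darkest in Control+c-MSST replicate 6, and the striatal, choroid plexus and septal rows vary between libraries in patterns of their own.

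The comparison of c-MSST with none in MK-801 mice had values of the same sign and a smaller median. All 9 had a negative log2 fold change in SCZ+c-MSST against SCZ, with a median of -0.28 beside -0.01 over all genes tested. The lowest was Cldn11 (-0.36, SE 0.25, edgeR adjusted p = 0.782; 95% interval -0.90 to 0.17) and the highest Opalin (-0.15, SE 0.29, edgeR adjusted p = 0.941; 95% interval -0.77 to 0.47). By edgeR over all 19 libraries 0 of 9 passed, beside 0% of genes tested, and 0 of 9 had an unadjusted p under 0.05, beside 7.56%. Control+c-MSST replicate 6 is in neither group, but the fit estimates spread over all groups together. Without that library the SE of Cldn11 was 0.15. The unadjusted edgeR p was then 0.027 for Cldn11, 0.040 for Mal and 0.047 for Mog, and above 0.05 for the rest. The lowest adjusted p was 0.585, for Cldn11. Every SCZ+c-MSST library lay below every SCZ library for 3 of the 9, Cnp, Cldn11 and Ugt8a, beside 6.09% of genes tested. The count of the 9 called was 0 by DESeq2 (background 0.378%), by limma voom (0.28%) and by limma on log2(FPKM + 1) (0.0122%). Septal and medial forebrain markers were also lower in SCZ+c-MSST for 3 of 3 (median -1.31) and microglia markers higher for 7 of 7 (median 0.12). Microglia markers summed to 334 to 407 CPM in SCZ+c-MSST and 330.2 to 365 CPM in SCZ, and their part in the myelin values was not tested. A fit chosen after seeing the data, with scores of the septal, striatal and choroid plexus markers as covariates, gave the 9 genes a median of -0.15.

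The comparison of MK-801 with saline, without c-MSST, had a median closer to 0. In SCZ against Control 8 of 9 genes had a positive log2 fold change, with a median of 0.11 beside 0.00 over all genes tested. The lowest was Mobp (-0.06, SE 0.26, edgeR adjusted p = 0.953; 95% interval -0.62 to 0.49) and the highest Opalin (0.22, SE 0.27, edgeR adjusted p = 0.765; 95% interval -0.34 to 0.79). None of the 9 passed, beside 0% of genes tested, and none had an unadjusted p under 0.05, beside 13.5%. Striatal markers were higher in SCZ for 8 of 8 (median 1.18), septal markers for 3 of 3 (0.65) and endothelial markers for 5 of 6 (0.14), and choroid plexus markers were lower for 5 of 5 (-2.16). The same covariate fit gave the 9 genes a median of -0.12, and the part of the endothelial list was not tested.

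MK-801 and saline mice were also compared with c-MSST in both. In SCZ+c-MSST against Control+c-MSST all 9 genes had a positive log2 fold change, with a median of 0.36, from 0.20 for Cldn11 (SE 0.24, edgeR adjusted p = 0.816) to 0.64 for Opalin (SE 0.28, edgeR adjusted p = 0.428). By edgeR 0 of 9 passed (background 0%), and Opalin alone had an unadjusted p under 0.05 (background 11%). At that unadjusted threshold DESeq2 had 4 of 9, limma voom 3 and limma on log2(FPKM + 1) 1, with 0 called by each. Of the 25 other genes of mature oligodendrocytes, 17 were higher at an unadjusted edgeR p under 0.05. Without Control+c-MSST replicate 6, 12 of the 25 reached it (background 7.7%). Striatal markers were higher in SCZ+c-MSST for 8 of 8 (median 1.12), and septal markers for 3 of 3 (0.51). The covariate fit gave the 9 genes a median of 0.08, and leaving out Control+c-MSST replicate 6 gave 0.15.

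Against Control, SCZ+c-MSST had a median log2 fold change of -0.21 over the 9 genes, with 8 of 9 negative. Mal was lowest (-0.33, SE 0.24, edgeR adjusted p = 0.674) and Opalin highest (0.07, SE 0.27, edgeR adjusted p = 0.963). None of the 9 passed (background 0%), and none had an unadjusted p under 0.05 (background 10.1%). Without Control+c-MSST replicate 6, Mal alone had an unadjusted edgeR p under 0.05, at 0.036, with an adjusted p of 0.459. These comparisons share libraries with those above, so their values are not independent of them.

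Whether c-MSST acted differently in MK-801 and in saline mice was asked by the interaction, the log2 fold change of SCZ+c-MSST against SCZ minus that of Control+c-MSST against Control. It was positive for 9 of 9 genes with a median of 0.26, from 0.07 for Cldn11 (SE 0.33, edgeR adjusted p = 0.979) to 0.42 for Mobp (SE 0.38, edgeR adjusted p = 0.833). None of the 9 passed (background 0%), and none had an unadjusted p under 0.05 (background 7.29%). The 95% interval of Mbp ran from -0.34 to 1.05 around 0.36, so a difference between the models was not shown and not closely bounded. Leaving out Control+c-MSST replicate 6 gave a median of 0.08, with 8 of 9 positive. The interaction of Mbp was then 0.16 (SE 0.20, edgeR adjusted p = 0.915), beside an SE of 0.33 with that library.

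**Figure D3:**
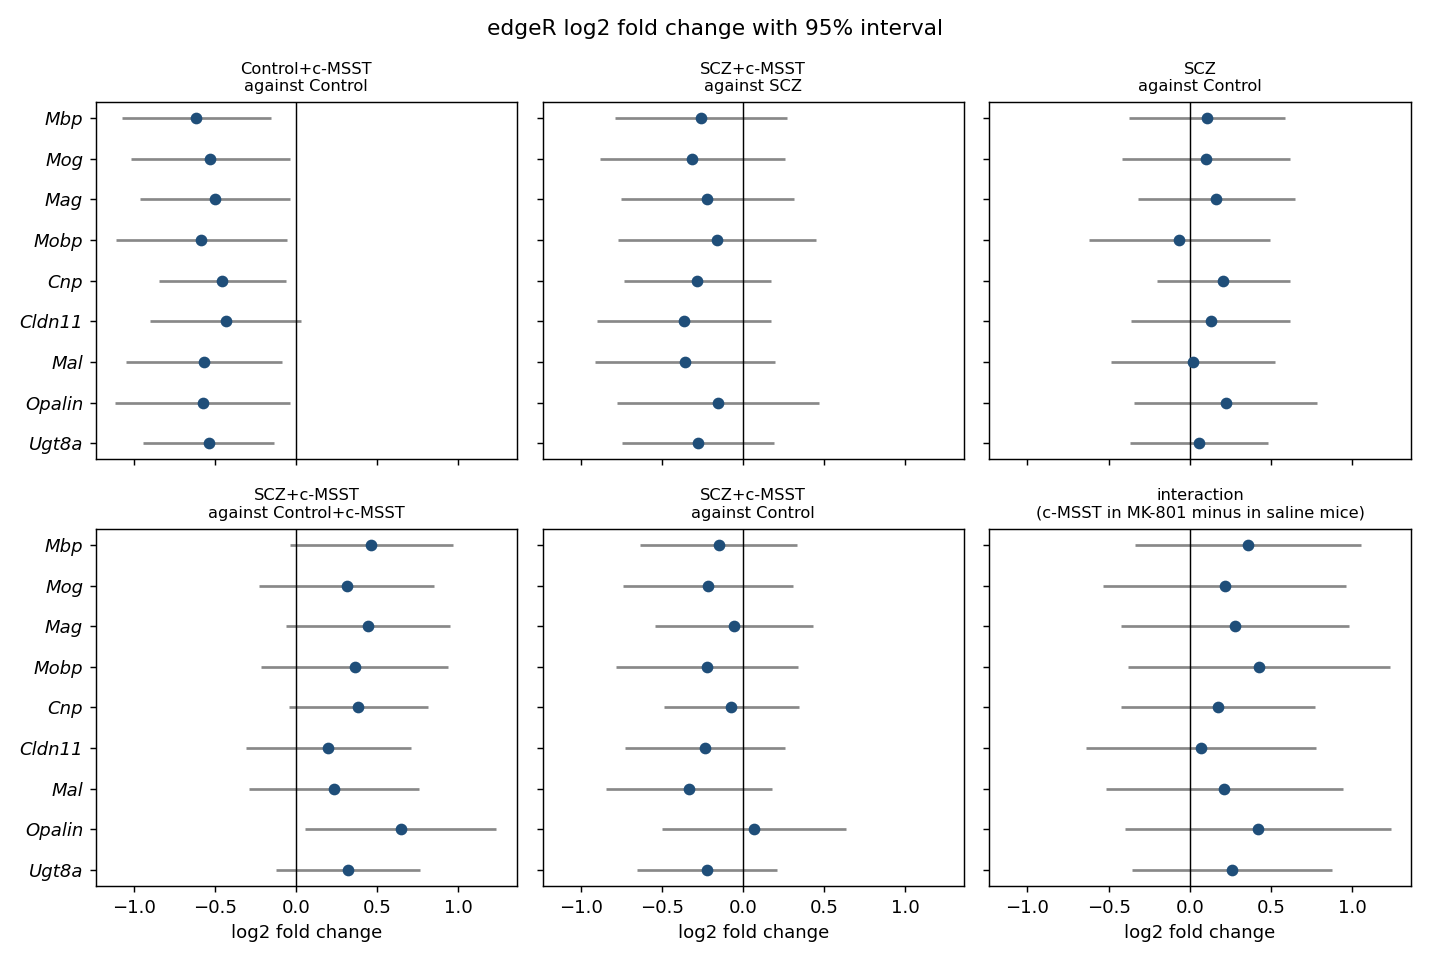
Log2 fold change (horizontal axis) of each of the 9 myelin genes (vertical axis) in 6 comparisons, as points with 95% intervals from the edgeR fit; the first group named in each panel title is set against the second. Points lie left of 0 for 9 of 9 genes in both comparisons of c-MSST with none. They run from -0.61 to -0.43 in saline mice and from -0.36 to -0.15 in MK-801 mice. In MK-801 mice every interval includes 0 in this fit of all 19 libraries.

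The 9 genes varied as 1 unit across libraries. The first principal component of their log2 CPM held 96.5% of the variance over 19 libraries and 89.4% over the 18 without Control+c-MSST replicate 6. Pearson's r between pairs of the genes ran from 0.71 to 0.98 over those 18 libraries, as a description, since the genes share each library's depth and dissection. The closest pair was Mbp and Mag, whose log2 ratio had an SD of 0.06 over 19 libraries. Over the 36 pairs that SD ran from 0.06 to 0.25, below the SD of every single gene in log2 CPM, 0.41 to 0.57.

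Genes outside the 9 with the most similar course were found by Pearson's r with the mean of the 9 over 19 libraries, among 14054 genes at 1 CPM or more. Of the 10 closest, 9 are named here, among them Slc44a1 (r 0.979), a choline transporter, Fa2h (0.979), which makes the hydroxylated fatty acids of myelin lipids, Gsn (0.973), an actin-severing protein, and Plekhh1 (0.971). The others were Gjc3 (0.970), a gap junction protein, Adamts4 (0.966), a protease, Myrf (0.956), Ermn (0.954), a cytoskeletal protein of late oligodendrocytes, and Plxnb3 (0.952), a semaphorin receptor. Over the 18 libraries without Control+c-MSST replicate 6 the r of these 9 ran from 0.833 to 0.968, and 46 of the genes compared had an r above 0.9 over all libraries.

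Further genes of the lineage were read by list in Control+c-MSST against Control, where 0 of their members passed the adjusted threshold by edgeR. Of 25 other genes of mature oligodendrocytes and myelin, 25 were negative with a median of -0.51, and 22 had an unadjusted p under 0.05, beside 16.6% of genes tested. Its members with the highest mean CPM were Enpp2 and Plekhb1. Plekhb1, a membrane-associated protein, averaged 137 ± 29.7 CPM in Control+c-MSST (SD, n = 5) and 208 ± 28.0 CPM in Control (n = 6), with a log2 fold change of -0.58 (SE 0.13, edgeR adjusted p = 0.0582). Enpp2, the lysophospholipase autotaxin, is also made by the choroid plexus, and averaged 208 ± 30.2 CPM in Control+c-MSST and 327 ± 246 CPM in Control.

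Transcription factors of the lineage were negative for 10 of 10, with a median of -0.36. Myrf, which switches on myelin genes, averaged 39.4 ± 10.9 CPM in Control+c-MSST (n = 5) and 58.0 ± 11.5 CPM in Control (n = 6), with a log2 fold change of -0.54 (SE 0.18, edgeR adjusted p = 0.148). Sox8 averaged 49.85 ± 3.05 CPM in Control+c-MSST and 53.5 ± 6.52 CPM in Control. Markers of precursors and committed cells were negative for 7 of 11, with a median of -0.02, and Pdgfra, the growth factor receptor of precursors, had a log2 fold change of -0.14 (SE 0.07, edgeR adjusted p = 0.309). Pcdh15, an adhesion protein of precursors, had 93.9 ± 7.32 CPM in Control+c-MSST and 91.0 ± 10.6 CPM in Control.

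Lipid genes showed smaller medians than the 9. Myelin sphingolipid enzymes were negative for 9 of 10 (median -0.12), with Cers2, which makes very long chain ceramides, at a log2 fold change of -0.32 (SE 0.10, edgeR adjusted p = 0.117) and Degs1, a ceramide desaturase, at -0.04. Cholesterol synthesis genes, which neurons and astrocytes also express, were negative for 8 of 14 (median -0.02). Node and paranode genes of the axon were positive for 7 of 10 (median 0.06). Peripheral myelin genes, made by Schwann cells, summed to 9.22 to 24.5 CPM over all libraries.

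Markers of other cells stood beside these values as follows in Control+c-MSST against Control. Astrocyte markers were negative for 7 of 7 (median -0.11), microglia markers positive for 5 of 7 (0.06), neuron markers negative for 5 of 9 (0.00) and endothelial markers split 3 and 3 (0.07). At an unadjusted edgeR p under 0.05, 4 astrocyte markers were lower and 3 neuron and 2 endothelial markers higher, beside 16.6% of genes tested. No microglia marker reached it. Striatal markers were negative for 8 of 8 (median -0.18), septal markers for 3 of 3 (-0.94) and choroid plexus markers for 5 of 5 (-3.88), the last with the high Control libraries given above. Upper layer neuron markers were positive for 4 of 4 (median 0.16; 3 of 4 and 0.18 without replicate 6), and deep layer neuron markers for 3 of 5 (0.01; 2 of 5 and -0.05 without it). The part of the cell and layer lists in the myelin values was not tested. With the scores of the striatal, choroid plexus and septal lists as covariates the median of the 9 myelin genes was -0.38 and 0 passed. The medians without Control+c-MSST replicate 6 were -0.36 for the other mature oligodendrocyte genes, -0.26 for the transcription factors and -0.03 for the precursor markers.

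**Figure D4:**
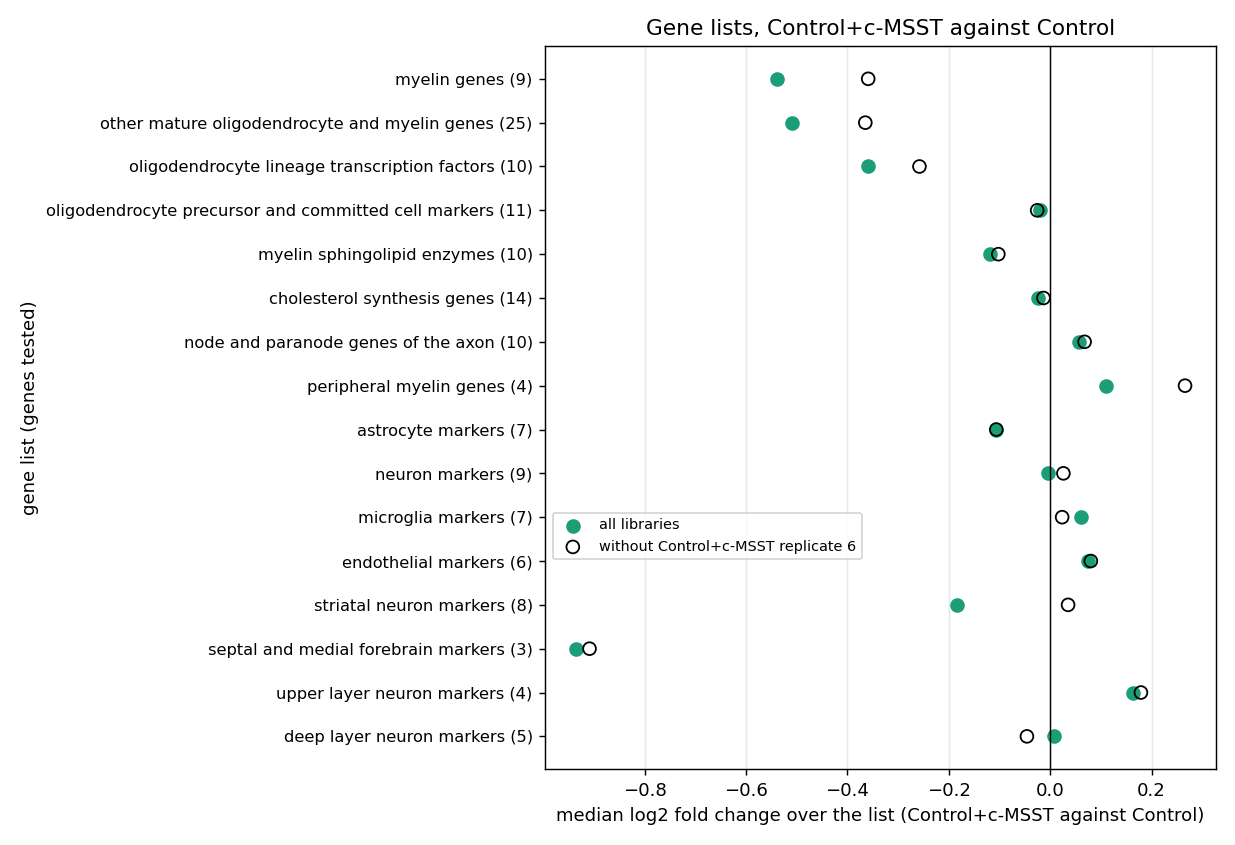
Median log2 fold change in Control+c-MSST against Control (horizontal axis) of the 9 myelin genes and of 15 gene lists (vertical axis, with the number of genes tested); filled points use all libraries and open points leave out Control+c-MSST replicate 6. Choroid plexus markers, at -3.88, lie outside the axis and are not drawn. The myelin genes lie at -0.54 and -0.36 and the other mature oligodendrocyte genes at -0.51 and -0.36, while precursor markers lie at -0.02 and -0.03.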

How the data were processed

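RNA sequencing of 19 libraries gave, per the deposited tables, whole-number estimated counts per gene and FPKM values that the authors scaled to gene length and depth. The submitters' processing notes name STAR 2.7.7a, StringTie 1.3.5, fastp 0.19.5 and Picard 2.18.29 with build mm10; the annotation, the strand setting and the order of steps are not given in the sources used here. Per the labels' protocols the kit was stranded, for total RNA, and libraries were grouped by their titles. The counts were proportional to the FPKM values, so they were treated as estimated counts; none needed rounding.

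Genes were tested in R 4.3.3 with edgeR 4.0.16 (filterByExpr, TMM, 1 robust quasi-likelihood fit with a coefficient per group), with Benjamini-Hochberg adjustment over 16417 genes and a threshold of 0.05, and the script was tested on simulated data. CPM are counts over the library total, without TMM factors. Intervals cover the spread between these libraries. Replicate libraries differed by more than sampling noise (chi-square per degree of freedom of at least 28.5), so none was taken as a repeat.

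Alternatives were DESeq2 1.42.0, limma 3.58.1 (voom, and log2 of FPKM with pseudocounts of 1 and 0.1), other size factors and filters, a replicate block, only the groups compared, and each library left out. The members and gene lists were chosen with earlier results of these data known. The naming rule took all 9 genes with every library's level, single fold changes for all 9 in Control+c-MSST against Control and for the lowest and highest in the other comparisons, the 2 most abundant genes of each list (given here for the lineage lists), and the 10 genes closest in course, of which 1 is not reported here. Promoters and their starts are from RefSeq, and gene positions from GENCODE M21.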

Additional observations from a re-analysis of the deposited data

How the results depend on the processing

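Under 30 or 31 alternatives per comparison, 0 of the 9 myelin genes were called, except that DESeq2 called 1 (Mbp) in Control+c-MSST against Control. The median log2 fold change stayed negative in that comparison, from -0.55 to -0.31 over other settings and from -0.68 (without Control+c-MSST replicate 2) to -0.36 (without replicate 6) when 1 library was left out. Leaving out 3 libraries together, Control+c-MSST replicate 6 with replicates 2 and 3 of Control, gave -0.36. In SCZ+c-MSST against SCZ it ran from -0.34 to -0.15 over other settings and from -0.35 to -0.23 over single libraries left out. In SCZ against Control it changed sign in 1 alternative, the covariate fit (-0.12), and ran from 0.02 without Control replicate 3 to 0.17 without Control replicate 2. In SCZ+c-MSST against Control it ran from -0.30 without SCZ+c-MSST replicate 3 to -0.13 without SCZ+c-MSST replicate 4. In SCZ+c-MSST against Control+c-MSST it ran from 0.08 (the covariate fit) to 0.37 over other settings and from 0.15 (Control+c-MSST replicate 6 left out) to 0.47 (Control+c-MSST replicate 2 left out), with 0.19 under the replicate block. The covariate fit and the joint removal were chosen after seeing the data.

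Pairing by replicate number was not seen: of 19 same-numbered pairs 1 had a correlation of deviations above 0.1 (lowest -0.0958, highest 0.139). The labels do not say what the numbers mean, and this check cannot exclude a shared batch. With the numbers as a replicate block the median was -0.31 in Control+c-MSST against Control and -0.23 for SCZ+c-MSST against SCZ. In each comparison 0 of 9 were called. No other library carries the number 6, so the block also takes Control+c-MSST replicate 6 out of the comparisons. The -0.31 is therefore not separate from leaving that library out. The same holds for the block value given above for SCZ+c-MSST against Control+c-MSST.

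Each of the 9 genes had at least 278 counts in every library. A floor of 3 counts is 0.0364 to 0.0598 CPM, for counting error only.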
